A study of Homo sapiens with 4 samples.

Results

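CD44, GIGYF2 and CDC42BPB are genes named in the study as alternatively spliced after PDCD4 silencing, and the crosslink sites of PDCD4 on their transcripts are described here relative to the exons that annotated transcripts skip. Their sites were taken from both deposited lists wherever the gene label held the exact symbol, which gave 194 of 158922 PDCD4 sites and 108 of 111361 IgG sites, on 3 of 14416 genes with a listed site. Sites came from improved individual nucleotide resolution UV crosslinking and immunoprecipitation (iCLIP), which maps the nucleotide where a protein was crosslinked to RNA, in MCF10A cells of genotype WT, an untransformed human breast epithelial line grown with serum, epidermal growth factor, insulin, hydrocortisone and cholera toxin. PDCD4 was precipitated in 2 samples and an isotype IgG served as the control in 2 samples, with no treatment or knockdown in either group. Each group was deposited as a single merged list, so the spread between replicates cannot be seen, no p-value is given, and every interval is a 95% interval that covers counting error only. The score of a site is called its count of cDNAs here, the reverse-transcribed copies that ended there, although the sources used here do not say whether PCR copies were collapsed. The PDCD4 list held 409308 cDNAs and the IgG list 276139, with a median score of 2 in both. Both are lists of called peaks, so these totals and all site counts cover listed positions only. A position without a listed site may still have held cDNAs.

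PDCD4 is an RNA-binding tumour suppressor protein best known for blocking the helicase eIF4A in translation, and it is also found in the nucleus. An exon is skipped when the splicing machinery joins the exon before it to the exon after it, and proteins that bind in the exon or in the introns beside it can shift this choice. CD44 is the cell surface receptor for hyaluronan, and its variable exons, which lengthen the extracellular stem of the protein, are a classic case of alternative splicing in epithelial cells. GIGYF2 is an adaptor that works with the cap-binding protein EIF4E2 to repress translation of selected mRNAs. CDC42BPB, also called MRCKB, is a kinase that is recruited by the small GTPase CDC42 and acts on the actomyosin cytoskeleton.

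CD44 (ENSG00000026508) lies on the plus strand of chromosome 11 at 35138882 to 35232402, GIGYF2 (ENSG00000204120) on the plus strand of chromosome 2 at 232697299 to 232860605, and CDC42BPB (ENSG00000198752) on the minus strand of chromosome 14 at 102932380 to 103057549, all on GRCh38. The sources used here give no coordinates for the exons whose inclusion changed. A skipped exon is therefore any exon of a GENCODE v44 transcript that another annotated transcript of the gene splices out between the same flanking splice sites. By this definition 12 exons of CD44 were skipped, together 1422 nt, and they overlap exons 3, 6 to 15 and 17 of the canonical transcript. GIGYF2 had 12 skipped exons of 1003 nt, of which 3 belong to its canonical transcript, and CDC42BPB had 1 of 78 nt.

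The sequences of skipped exons that carry a PDCD4 site, or that stand for the genes where none did, are shown first so that the sites can be read in their context. They are printed 5′ to 3′ on the sense strand of the gene from the GRCh38 reference, with T for U. In the first pair, the 2 CD44 exons with sites inside, capitals mark the crosslinked nucleotides of the PDCD4 list.
CD44 exon 3, chr11:35180274-35180407: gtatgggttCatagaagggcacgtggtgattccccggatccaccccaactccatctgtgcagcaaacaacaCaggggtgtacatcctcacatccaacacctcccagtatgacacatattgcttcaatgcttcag
CD44 exon 10 (v6), chr11:35204512-35204640: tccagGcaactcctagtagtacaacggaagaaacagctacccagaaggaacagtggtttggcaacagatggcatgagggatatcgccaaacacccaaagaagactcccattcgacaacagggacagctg
The next line is the boundary of intron 7 and exon 8 (v4) of CD44, where the capital again marks the crosslinked nucleotide, which here is the A of the AG that ends the intron.
CD44 exon 8 boundary, chr11:35201066-35201094: atcatcgttatcacAgtttcaaccacacc
In the exons of GIGYF2 and CDC42BPB below, none of which held a site of either list, capitals mark the skipped exon and lower case the 30 nt of intron on each side.
GIGYF2 exon 7, chr2:232760450-232760621: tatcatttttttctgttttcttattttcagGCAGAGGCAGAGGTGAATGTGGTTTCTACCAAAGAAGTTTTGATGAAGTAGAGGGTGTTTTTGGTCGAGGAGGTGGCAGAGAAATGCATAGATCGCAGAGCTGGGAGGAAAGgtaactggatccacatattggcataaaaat
GIGYF2 exon 8, chr2:232761366-232761466: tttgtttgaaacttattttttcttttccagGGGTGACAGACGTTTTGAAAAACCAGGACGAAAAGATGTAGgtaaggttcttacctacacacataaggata
CDC42BPB exon 23, chr14:102954168-102954305: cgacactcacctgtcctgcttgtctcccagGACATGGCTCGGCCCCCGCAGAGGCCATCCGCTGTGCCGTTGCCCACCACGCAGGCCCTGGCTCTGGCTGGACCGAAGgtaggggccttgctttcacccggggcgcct

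The site with the highest score of each gene lay in an exon that is not annotated as skipped. Each gene had 1 PDCD4 site with a score of 6, and its windows of 14 nt on each side follow, with the crosslinked nucleotide in capitals.
CD44 exon 18, 3′UTR, chr11:35230215-35230243: gttttttgttttttTtttttgacactgtc
GIGYF2 exon 29, 3′UTR, chr2:232857219-232857247: tttttttcttctatTttgttttttcttct
CDC42BPB exon 10, coding, chr14:102975985-102976013: gcagtccaacacatTaaccaaagatgagg
These 3 sites were the only PDCD4 sites of the genes above a score of 5, the limit that the study's methods name for its peaks, and no IgG site of the genes passed it. Over the whole lists, 1.48% of PDCD4 sites and 0.690% of IgG sites had a score above 5.

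CD44 had the most sites of the 3 genes, and relative to the size of each list it held more PDCD4 than IgG cDNAs. The PDCD4 list held 110 CD44 sites with 268 cDNAs, which is 6.55 per 10000 cDNAs of the list (5.79 to 7.38). In the IgG list 49 sites held 112 cDNAs, or 4.06 per 10000 (3.34 to 4.88), so the counting intervals were apart. The log2 ratio of PDCD4 over IgG shares, with 1 cDNA added to each sum, was 0.68 (0.37 to 1.00). GIGYF2 had 35 PDCD4 sites with 99 cDNAs (2.42 per 10000, 1.97 to 2.94) against 22 IgG sites with 48 cDNAs (1.74 per 10000, 1.28 to 2.30), and its log2 ratio was 0.46 with an interval that reached below 0 (-0.03 to 0.95). CDC42BPB had 49 PDCD4 sites with 124 cDNAs (3.03 per 10000, 2.52 to 3.61) against 37 IgG sites with 86 cDNAs (3.11 per 10000, 2.49 to 3.85), and its log2 ratio was -0.04 (-0.44 to 0.35).

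The log2 ratio of CD44 exceeded that of CDC42BPB by 0.73 (0.22 to 1.23), an interval above 0 if each cDNA is an independent count. Several cDNAs can share a site, so this interval may be too narrow. Counted by sites, the ratios were 0.64 (0.16 to 1.12) for CD44 and -0.12 (-0.73 to 0.49) for CDC42BPB, with overlapping intervals. Between CD44 and GIGYF2 the difference by cDNAs was 0.22 (-0.36 to 0.81), and between GIGYF2 and CDC42BPB it was 0.51 (-0.13 to 1.14). Neither pair was told apart at this depth. None of the 3 genes reached a 2-fold higher PDCD4 share, a level that 18.8% of the 9594 genes with at least 10 cDNAs over both lists did reach, and none was 2-fold lower, as 18.1% were. The median log2 ratio over those genes was -0.08, with quartiles at -0.75 and 0.70, and 74.7%, 68.9% and 51.8% of them had a lower ratio than CD44, GIGYF2 and CDC42BPB, respectively. The amount of each transcript in the cells is not part of these lists, so a gene's rank by cDNAs (132 for CD44, 797 for GIGYF2 and 536 for CDC42BPB in the PDCD4 list) also carries its expression.

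**Figure D1:**
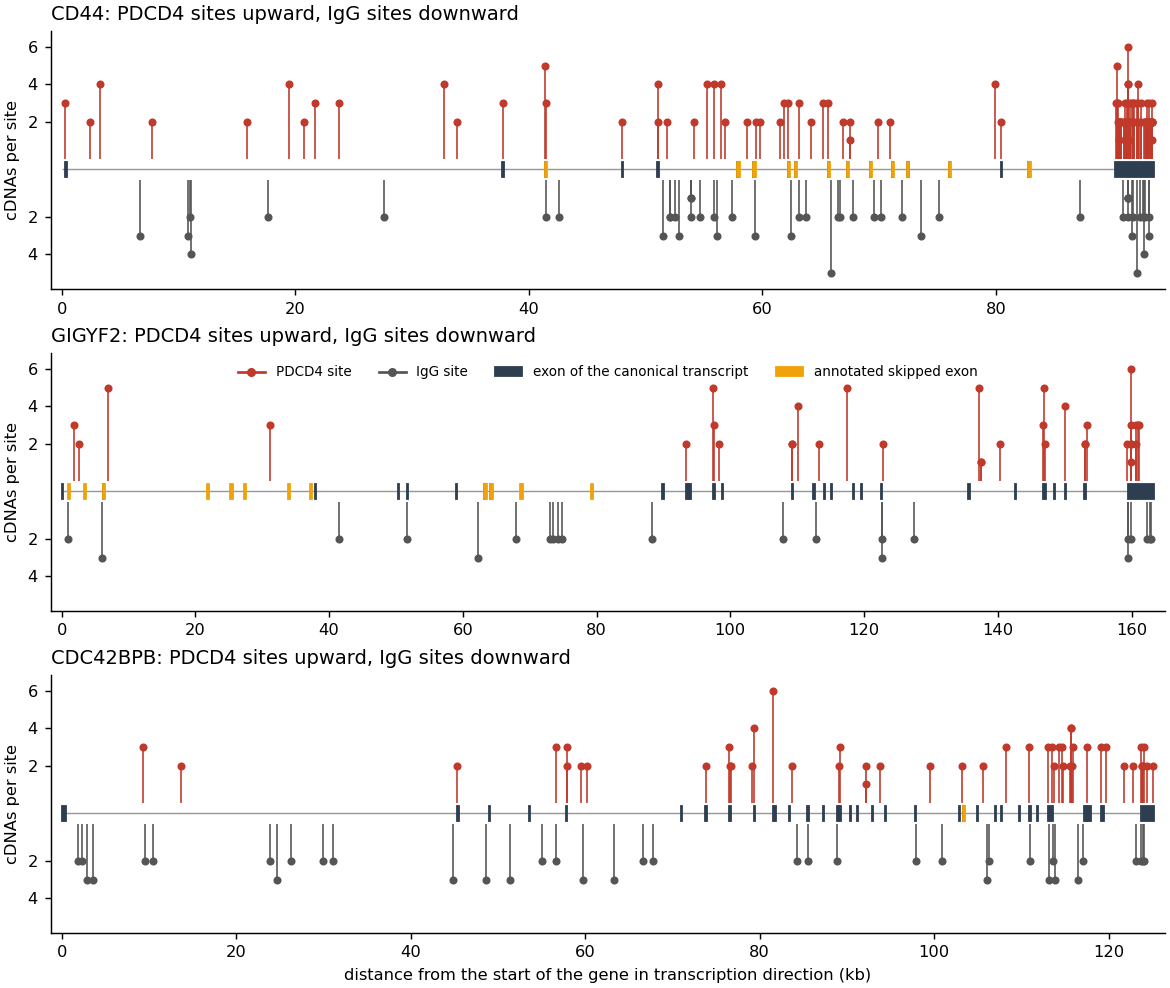
Sites of CD44, GIGYF2 and CDC42BPB along each gene, with the distance from the gene's start in kb on the horizontal axis and the cDNAs per site on the vertical axis. PDCD4 sites point up (red) and IgG sites down (grey). Dark boxes are exons of the canonical transcript and orange boxes annotated skipped exons. PDCD4 sites pile up at the last exon of CD44, while 3 of CD44 and none of GIGYF2 or CDC42BPB lie inside the orange boxes.

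In all 3 genes the exonic share of sites was higher in the PDCD4 list than in the IgG list. Of the CD44 sites, 82 of 110 PDCD4 sites were exonic (74.5%, Wilson interval 65.7 to 81.8), against 19 of 49 IgG sites (38.8%, 26.4 to 52.8), and these exonic sites held 72.0% of the PDCD4 and 41.1% of the IgG cDNAs. For GIGYF2 the exonic sites were 21 of 35 for PDCD4 (60.0%, 43.6 to 74.5) and 8 of 22 for IgG (36.4%, 19.7 to 57.0), with 59.6% and 35.4% of the cDNAs. For CDC42BPB they were 21 of 49 (42.9%, 30.02 to 56.7) and 9 of 37 (24.3%, 13.4 to 40.1), with 45.2% and 22.1% of the cDNAs. The intervals of the 2 lists were apart for CD44 and overlapped for GIGYF2 and CDC42BPB. Here and below, Wilson intervals treat each site as independent, although neighbouring sites may not be. Joined where no more than 20 nt apart, the 110 PDCD4 sites of CD44 formed 76 runs and its 49 IgG sites 42, so the intervals may be too narrow. A higher exonic share in the PDCD4 list was found in 82.1% of the 1253 genes with at least 20 sites in each list, with a median difference of 11.2 percentage points. The differences were 35.8 points for CD44, 23.6 for GIGYF2 and 18.5 for CDC42BPB, and 93.5%, 78.1% and 67.5% of those genes had a smaller one. Exons make up 5.83%, 4.79% and 5.47% of the canonical transcription units of CD44, GIGYF2 and CDC42BPB.

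The same split appeared when exons and introns were set against the list totals separately. The exonic log2 ratio was 1.48 (1.02 to 1.94) for CD44, 1.17 (0.41 to 1.93) for GIGYF2 and 0.94 (0.21 to 1.68) for CDC42BPB. An exonic ratio of 2-fold or more, which CD44 and GIGYF2 showed, was found in 33.1% of the 6734 genes with at least 10 exonic cDNAs. The intronic log2 ratio was -0.39 (-0.86 to 0.09) for CD44, -0.21 (-0.88 to 0.46) for GIGYF2 and -0.55 (-1.03 to -0.06) for CDC42BPB. None of these reached a 2-fold lower intronic share, as 30.7% of the 6884 genes with at least 10 intronic cDNAs did. Over all sites the exonic ratio was 0.59 and the intronic ratio -0.43, so the introns of the 3 genes lay near the level of all introns.

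**Figure D2:**
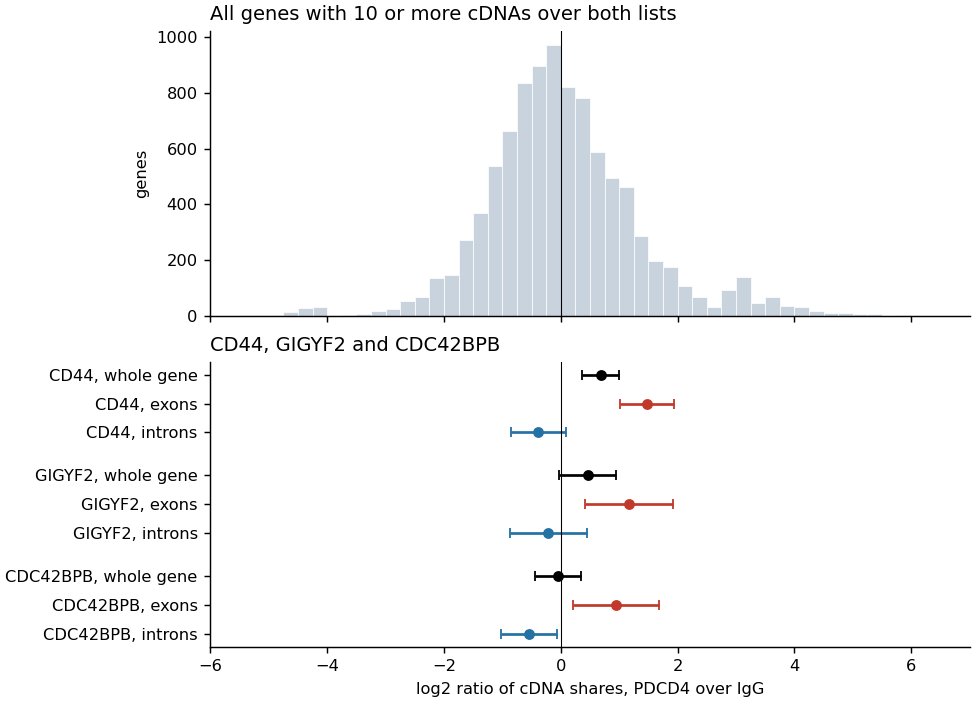
Log2 ratio of cDNA shares, PDCD4 over IgG, on the horizontal axis. The upper panel counts all 9594 genes with at least 10 cDNAs over both lists, and the lower panel gives the whole gene, the exons and the introns of the 3 genes with 95% counting intervals. Exons lie at 0.94 to 1.48 and introns at -0.55 to -0.21.

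The exonic part with the most PDCD4 sites was the 3′UTR in CD44 and the coding sequence in GIGYF2 and CDC42BPB. In CD44 the 3′ untranslated region (3′UTR), which follows the stop codon, held 67 PDCD4 sites (149 cDNAs) and 15 IgG sites (33 cDNAs), a log2 ratio of 1.57 (1.04 to 2.11). Its coding sequence (CDS) held 11 PDCD4 sites with 35 cDNAs against a single IgG site with 2, and the 5′UTR 1 PDCD4 site with 3 cDNAs. In GIGYF2 the CDS held 11 PDCD4 sites with 32 cDNAs against 4 IgG sites with 9 (log2 ratio 1.15, 0.13 to 2.18), and the 3′UTR 9 with 25 cDNAs against 4 with 8 (0.96, -0.13 to 2.06). In CDC42BPB the CDS led, with 16 PDCD4 sites and 45 cDNAs against 6 IgG sites and 13 cDNAs (1.15, 0.29 to 2.01), and the 3′UTR held 5 sites against 2. Per length of the canonical 3′UTR, CD44 had 21.8 PDCD4 sites per kb, GIGYF2 2.40 and CDC42BPB 3.75, with 4.88, 1.07 and 1.498 IgG sites per kb. Over all sites the log2 ratio was 1.11 for the CDS and 0.22 for the 3′UTR.

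**Figure D3:**
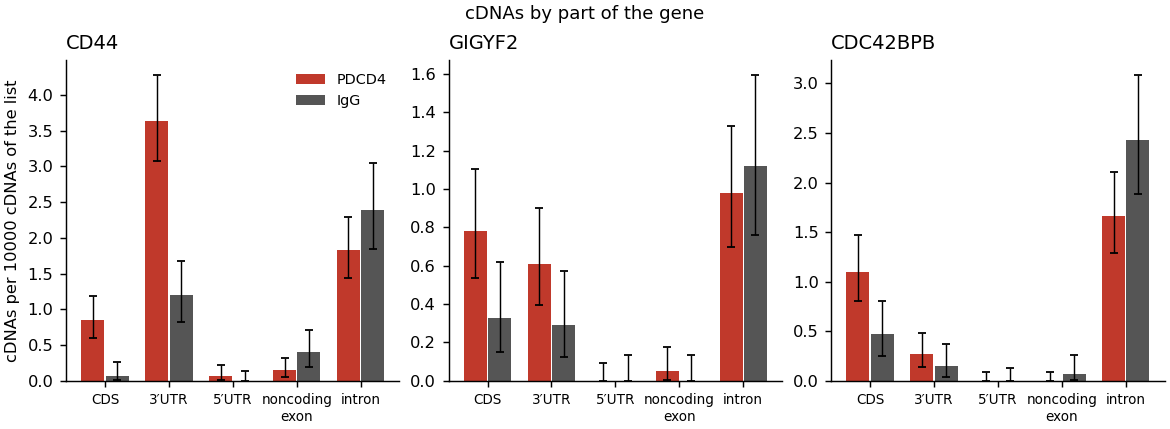
cDNAs per 10000 cDNAs of the list in each part of CD44, GIGYF2 and CDC42BPB, for the PDCD4 list (red) and the IgG list (grey), with 95% Poisson intervals as error bars. The 3′UTR of CD44 held 149 PDCD4 and 33 IgG cDNAs, and the introns of CDC42BPB 68 and 67.

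Within CD44 the last exon, exon 18 of the canonical transcript with 3274 nt, took up 70 of the gene's 110 PDCD4 sites, with 160 of 268 cDNAs, against 15 of 49 IgG sites with 33 cDNAs. PDCD4 sites were spread over nearly all of the 3072 nt of the 3′UTR. Successive stretches of 500 nt held 13, 19, 8, 5, 9 and 13 PDCD4 sites and 1, 5, 2, 2, 3 and 2 IgG sites, and the remaining end held none. The densest run, of PDCD4 sites no more than 20 nt apart, spanned 13 nt at 35230220 to 35230232, with 10 sites and 24 cDNAs, and includes the site of score 6 in the T-rich stretch printed above. The IgG list had its own densest CD44 run there, with 5 sites and 6 cDNAs at 35230219 to 35230223. CD44 was the only one of the 3 genes with a position in both lists (4 positions). Of its 110 PDCD4 sites, 21 lay within 20 nt of an IgG site, those of the densest run among them, against 0 in GIGYF2 and 0 in CDC42BPB. CD44 also has the most sites of the 3 genes, and the same counts over all genes were not made. Whether this overlap is particular to CD44 is therefore not known. The study's methods subtract IgG crosslink sites from the PDCD4 samples, a step that bears on shared positions and on the PDCD4 over IgG ratios, and its part in these values was not tested. With the positions in both lists left out, the log2 ratio of CD44 was 0.71 (0.39 to 1.04). In the coding start of exon 18 the PDCD4 site at 35229275 had a score of 5.

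**Figure D4:**
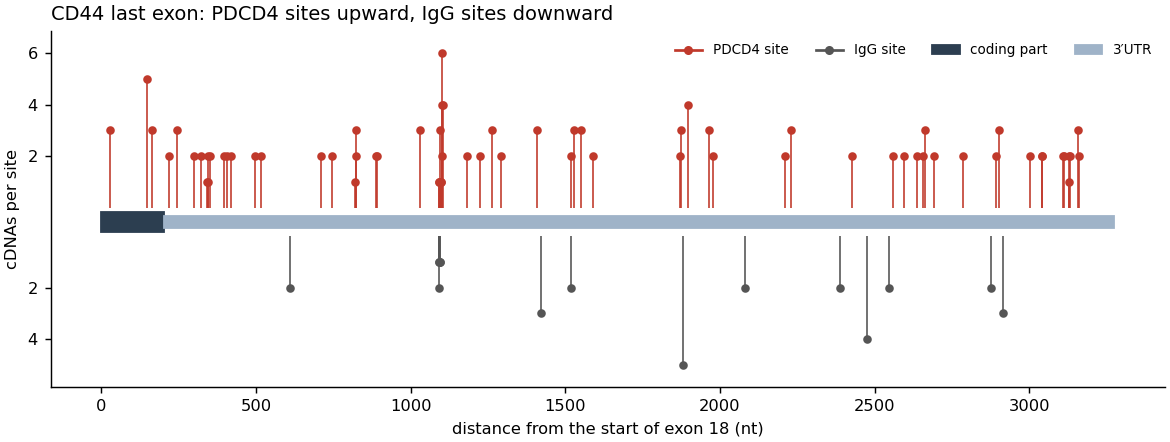
Sites in the last exon of CD44, with the distance from the start of exon 18 in nt on the horizontal axis and cDNAs per site on the vertical axis. PDCD4 sites (red, upward) number 70 and IgG sites (grey, downward) 15, and the dark and light boxes are the coding part and the 3′UTR.

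The skipped exons of CD44 held few PDCD4 sites. Inside the 12 skipped exons lay 3 PDCD4 sites with 11 cDNAs and 1 IgG site with 2. Exon 3, which encodes part of the hyaluronan-binding domain, held 2 of the PDCD4 sites, 1 with a score of 5 at 35180283, 10 nt into the exon, and 1 with a score of 3. The IgG site, with a score of 2, lay in the same exon at 35180325. Exon 10, known as v6, held the remaining PDCD4 site, with a score of 3 at 35204517, 6 nt into the exon. Exon 3 counts as skipped only through transcripts that are not annotated as protein-coding. With protein-coding transcripts alone, 1 PDCD4 site and no IgG site remained in skipped exons.

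The density of PDCD4 sites in the skipped exons of CD44 was 2.11 per kb (0.435 to 6.17), against 8.13 per kb (2.98 to 17.7) in the 5 other canonical exons before the last, where 6 PDCD4 sites and no IgG site were listed. These intervals overlapped. The last exon, with 21.4 PDCD4 sites per kb (16.7 to 27.0), lay above the skipped exons. How often the skipped exons are included in the transcripts of these cells is not part of these lists. A lower density per annotated kb therefore cannot be told apart from lower inclusion.

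The 9 variable exons v2 to v10, exons 6 to 14 of the canonical transcript, lie between exon 5 and exon 15 and each has a length divisible by 3. Their 1143 nt held 1 PDCD4 site, the one in v6, and no IgG site, and their inclusion in these cells is likewise not known from these lists. The introns of this block, 23643 nt, held 20 PDCD4 sites (49 cDNAs) and 25 IgG sites (57 cDNAs). As a share of the gene, the whole block had 21 of 110 PDCD4 sites (19.1%, 12.8 to 27.4) and 25 of 49 IgG sites (51.0%, 37.5 to 64.4), and its log2 ratio was -0.70 (-1.24 to -0.16). The block is mostly intron. All canonical introns of CD44 together had 28.2% of the PDCD4 and 67.3% of the IgG sites, with a log2 ratio of -0.50 (-0.94 to -0.05). Over all sites of the lists the intronic ratio was -0.43. Both values lay inside the interval of the block, so it was not told apart from other introns. Within the block, intron 5, before v2, held the most, with 6 PDCD4 sites and 18 cDNAs against 12 IgG sites and 25 cDNAs. In intron 7 the order was the other way, with 5 PDCD4 sites and 12 cDNAs against 1 IgG site and 3 cDNAs. The PDCD4 site closest to a variable exon without being in it was the printed one, 2 nt before v4, with a score of 3. The closest IgG site lay 42 nt after v3. Within 250 nt of the variable exons, exons included, there were 7 PDCD4 and 4 IgG sites. The highest PDCD4 score in the block was 4 and the highest IgG score 5, at 35204777, 137 nt after v6 and in a noncoding exon.

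**Figure D5:**
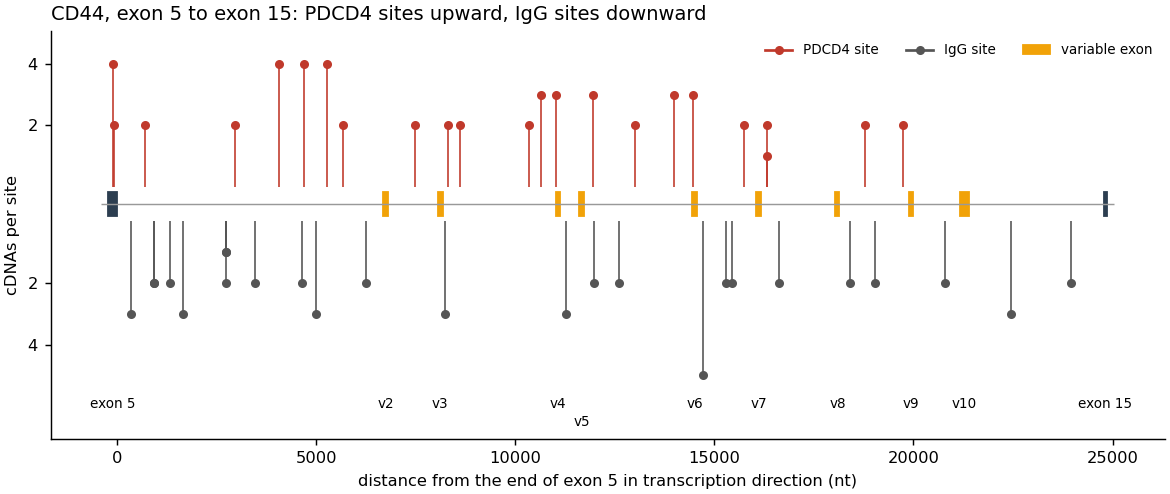
Sites of CD44 from exon 5 to exon 15, with the distance from the end of exon 5 in nt on the horizontal axis and cDNAs per site on the vertical axis. Orange boxes are the variable exons v2 to v10 and dark boxes exons 5 and 15. Of the PDCD4 sites (red, upward) 1 falls inside a variable exon, in v6, and IgG sites (grey, downward) fall inside none.

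In GIGYF2 no PDCD4 site and no IgG site lay inside any of the 12 skipped exons. A count of 0 over their 1003 nt allows up to 2.99 sites per kb, which is above the 2.63 PDCD4 sites per kb of the other canonical exons, so a lower density was not detectable at this depth. The nearest PDCD4 site to a skipped exon was the one with a score of 5 at 232704169, 680 nt after exon 2, and IgG sites lay closer, 15 nt before a skipped exon inside intron 1 and 24 nt before exon 2. Coding exons that are not annotated as skipped held 11 PDCD4 sites of GIGYF2. Exons 13 and 24 had 2 sites and 8 cDNAs each, with a score of 5 at 232794761 in exon 13, 14 nt into the exon, and at 232844185 in exon 24. Neither exon had an IgG site. The last exon held 9 PDCD4 sites (25 cDNAs) and 5 IgG sites (10 cDNAs), and 3 of its PDCD4 sites also carried the label of C2orf82. A run of 5 PDCD4 sites with 14 cDNAs spanned 20 nt at 232857231 to 232857250, around the site of score 6.

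In CDC42BPB the single skipped exon, exon 23 at 102954198 to 102954275, held no site of either list, and its 78 nt allow up to 38.5 sites per kb at a count of 0. The nearest PDCD4 site, with a score of 2, lay 107 nt away in intron 22, an intron of 326 nt, and the nearest IgG site lay 2394 nt away. The site of score 6 was in exon 10, 51 nt into the exon, and exon 9 held a site with a score of 4, 5 nt into the exon. Both exons had no IgG site. Exon 8 had 3 PDCD4 sites with 7 cDNAs and the last exon 7 with 16. Among the introns, intron 30 held 9 PDCD4 sites with 25 cDNAs against 3 IgG sites with 8 cDNAs, and intron 1, the longest with 44810 nt, held 2 PDCD4 sites with 5 cDNAs against 12 IgG sites with 28 cDNAs. The introns of the canonical transcript together held 28 PDCD4 and 29 IgG sites.

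Windows were then drawn from the exon before to the exon after each annotated skip, and merged where they overlapped. They are not the windows of the study's own splicing events. PDCD4 sites in them made up a smaller share of the gene's sites than IgG sites did in CD44 and GIGYF2. In CD44 these windows cover 52.6% of the gene and held 25 of 110 PDCD4 sites (22.7%, 15.9 to 31.4) and 28 of 49 IgG sites (57.1%, 43.3 to 69.98). Their log2 ratio of cDNA shares was -0.50 (-0.996 to -0.007). In GIGYF2 they cover 42.0% of the gene and held 4 of 35 PDCD4 sites (11.4%, 4.54 to 26.0) and 9 of 22 IgG sites (40.9%, 23.3 to 61.3), with a log2 ratio of -1.15 (-2.13 to -0.18). The intervals of these shares were apart for CD44 and overlapped for GIGYF2. All 4 PDCD4 sites lay in introns 1 and 2, and the window around exons 7 and 8, with introns 6 to 8, held 7 IgG sites and no PDCD4 site. In CDC42BPB the window covers 1.60% of the gene and held 1 of 49 PDCD4 sites and 0 of 37 IgG sites. These windows are mostly intron, and over all sites of the lists the intronic ratio was -0.43, inside the window intervals of CD44 and GIGYF2. The windows of these genes were therefore not told apart from introns in general. All canonical introns of the gene had -0.50 (-0.94 to -0.05) in CD44 and -0.14 (-0.80 to 0.52) in GIGYF2, and these intervals overlapped those of the windows.

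Beside splice sites in general, PDCD4 sites were more frequent at the start of exons than at the end. Over all annotated exons of the 3 genes, 18 of 124 exonic PDCD4 sites lay in the first 50 nt after a 3′ splice site and 4 in the last 50 nt before a 5′ splice site, against 3 and 3 of 36 exonic IgG sites. In the internal exons of the canonical transcripts 15 of 33 PDCD4 sites were in the first 50 nt (45.5%, 29.8 to 62.0) and 1 in the last 50 nt (3.03%, 0.537 to 15.3). The same shares over the internal exons of all genes were 43.4% and 4.56% for PDCD4 and 42.1% and 6.71% for IgG, and each of the windows makes up 32.7% of those exons. The 9 IgG sites in the internal exons of the 3 genes were too few to set beside these. On the intronic side, 3 of 70 intronic PDCD4 sites and 3 of 72 IgG sites lay in the last 100 nt of an intron, and 1 of each in the first 100 nt. The median intronic PDCD4 site lay 1000 nt from its nearest splice site and the median IgG site 1407 nt.

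The nucleotide at the crosslink was most often T in each of the 3 genes. T stood at 64 of 110 CD44 PDCD4 sites (58.2%, 48.8 to 67.0), 24 of 35 in GIGYF2 (68.6%, 52.0 to 81.4) and 23 of 49 in CDC42BPB (46.9%, 33.7 to 60.6). The IgG sites had 65.3%, 68.2% and 59.5% T in the same order, and T makes up 29.9%, 33.2% and 28.5% of the sense strands of the genes. Over all sites T stood at 46.7% of PDCD4 and 51.6% of IgG positions. In CDC42BPB C came second with 34.7% of PDCD4 positions (22.9 to 48.7). C was also second over all PDCD4 sites, with 26.5%, which lies inside that interval, and at the CD44 PDCD4 sites, with 16.4%.

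The other 16 genes with a skipped exon event in the study were described in the same way. All 16 had a site in both lists, and 15 reached 10 cDNAs. Of these 15, 0 were 2-fold higher in the PDCD4 list against 18.8% of all genes, and 2 were 2-fold lower against 18.1% of all genes. The 2 lower genes were RNF185 (log2 ratio -1.79) and the kinase FER (-1.24). Their median log2 ratio was -0.25, against -0.08 over all genes. PDK1, a mitochondrial kinase, had the highest at 0.71 (-0.06 to 1.48), and NFIB, a transcription factor, had the most cDNAs, 163 for PDCD4 and 162 for IgG (-0.56).

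Among 10 genes that act with CD44, 7 reached 10 cDNAs. Of these, 2 were 2-fold higher and 2 were 2-fold lower in the PDCD4 list, 3 were above 0, and the median log2 ratio was -0.15. Over all genes 18.8% were higher, 18.1% lower and 46.8% above 0, with a median of -0.08. MMP14, a membrane protease that cleaves CD44, had 21 PDCD4 sites and 2 IgG sites (log2 ratio 2.60, 1.48 to 3.73), and NF2, which encodes merlin, had 126 and 40 (1.11, 0.78 to 1.44). The ERM proteins, which tie CD44 to actin, lay lower, with EZR at -0.55 (-1.04 to -0.05), MSN at -0.15 (-0.51 to 0.20) and RDX at 0.12 (-0.31 to 0.55). ESRP1 and ESRP2, epithelial splicing factors that promote inclusion of CD44 variable exons, were the 2 lower genes, with 5 PDCD4 and 7 IgG sites (-1.01, -2.004 to -0.01) and 2 and 8 (-1.64, -2.72 to -0.55). Of 7 partners of GIGYF2, 6 were counted, with a median log2 ratio of 0.04 and 3 above 0, against 46.8% of all genes. Against the 18.8% of all genes, 1 of the 6 was 2-fold higher, the ubiquitin ligase ZNF598, which acts on collided ribosomes, with 44 and 5 sites (2.23, 1.52 to 2.94). EIF4E2 itself had 20 and 10 sites (0.20, -0.48 to 0.89). The silencing factors TNRC6A (-0.45, -0.88 to -0.03), CNOT1 (-0.20, -0.57 to 0.17) and TNRC6B (-0.11, -0.50 to 0.27) were below 0. Of 10 genes around CDC42BPB, 9 were counted, with a median log2 ratio of 0.43 and 7 above 0, against 46.8% of all genes. Against the 18.8% of all genes, 3 of the 9 were 2-fold higher, the paralog CDC42BPG (1.72, 0.62 to 2.82), the myosin MYO18A (1.35, 0.83 to 1.87) and the kinase LIMK1 (1.02, 0.07 to 1.96). The other paralog, CDC42BPA, lay below 0 (-0.36, -0.69 to -0.02), and CDC42 had 16 and 9 sites (0.43, -0.31 to 1.17).

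The cell label was checked on markers. The 10 epithelial genes were KRT5, KRT14, KRT17, KRT6A, KRT7, KRT18, EPCAM, CDH1, LAMB3 and ITGA6. All 10 had a PDCD4 site and 9 an IgG site. Their summed level was 49.0 per 10000 cDNAs against 25.1 in the IgG list, led by KRT7 with 239 and 87 sites. KRT7 gave 808 of their 2005 PDCD4 cDNAs, while KRT14 had 1 PDCD4 site with 3 cDNAs. Of 9 genes with at least 10 cDNAs, 7 had a log2 ratio above 0, against 46.8% of all genes, while CDH1 (-0.39) and ITGA6 (-0.15) had a ratio below 0. Both lists come from the same cells, so this ratio does not bear on cell identity. None of 6 markers of blood, endothelial, muscle, liver or glial cells (PTPRC, PECAM1, CD79A, MYH6, ALB and GFAP) had a site in either list.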

How the data were processed

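iCLIP sites of PDCD4 and isotype IgG were measured in MCF10A cells, with 2 samples per group. For the authors' files, iCount mapped and grouped the reads on the genome of Ensembl release 88. The authors merged the replicates and deposited 1 list per group of 1 nt sites, each with a gene label and a score, the count of cDNAs. Their methods subtract IgG crosslink sites from the PDCD4 samples before peaks are called, and keep scores above 5. The deposited lists are peak lists that start at a score of 1, and cDNAs at positions that were not called are absent from them. How the IgG list was called, and whether PCR copies were collapsed, is not given in the sources used here.

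Here scores were summed per gene and divided by the list total, and log2 ratios were taken after adding a pseudocount of 1. Exons came from GENCODE v44 (GRCh38, the annotation of the study's splicing analysis), over all transcripts, with CDS taken before 3′UTR, then 5′UTR, noncoding exon and intron. Intervals are Wilson for shares and Poisson for counts, and the limit at a count of 0 is 3 counts. All sites lay within the reference chromosomes. Named were the 3 genes, their parts with the largest sums, highest sites and sites in skipped exons, and examples from fixed partner lists. The members and lists were chosen with earlier results of these data known. Scripts used Python 3.11.15, were tested on simulated data, and tried other score limits, transcripts, windows and denominators.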

Additional observations from a re-analysis of the deposited data

How the results depend on the processing

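With 7 alternatives each, the log2 ratio stayed between 0.64 and 0.72 for CD44, 0.13 and 0.48 for GIGYF2 and -0.12 and -0.03 for CDC42BPB, inside the counting intervals of the reported values. In all, 108 of 130 alternative values of 29 results stayed within their interval or within 1.5 times of the reported count. Limiting the lists to scores above 5 left 1 PDCD4 site in each gene, all exonic (100%), and no IgG site, so no ratio or IgG share could be had there, and 0 PDCD4 and 0 IgG sites in the CD44 and GIGYF2 skipped exons and windows and 0 in the CDC42BPB window. Counting any internal exon inside an annotated intron put 7 PDCD4 sites in CD44 skipped exons and 1 IgG site in those of GIGYF2. Protein-coding transcripts alone gave 1 PDCD4 and 0 IgG sites in CD44 skipped exons. By construction the exon windows followed their width: the first 25 nt of exons held 11 PDCD4 sites and the first 100 nt 31 PDCD4 and 8 IgG sites, the last 25 nt 1 IgG site and the last 100 nt 19 PDCD4 and 7 IgG sites. With a single transcript per gene the last 50 nt of exons held 1 PDCD4 site and the first 100 nt of introns 2 IgG sites. No paired analysis was possible because each list merges its replicates, and leaving out a replicate was not run for the same reason.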
